A study of Mus musculus with 6 samples.

Results

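The 34 genes described here encode the folding machinery of the endoplasmic reticulum (ER): chaperones, lectins, disulfide enzymes, the translocation channel, the degradation pathway for misfolded ER proteins, and the factors that control them. They were chosen by name, as genes of the types that the transcription factors ATF6 and XBP1 are known to control, and all 34 were among the 16022 genes of the deposited table. The RNA came from LSK cells of mouse bone marrow, a sorted gate (no lineage markers, high Sca-1, c-kit present) in which blood stem cells and early progenitors are found. The 6 libraries came from wild-type mice (WT, 3 libraries) and from HDAC6-deficient mice (KO, 3 libraries), HDAC6 being a deacetylase that acts mostly in the cytoplasm. The labels give no treatment for either group. They do not state the strain, the age, the allele, or whether each library came from its own animal. The p-values therefore measure the spread between these samples, which may be technical. The comparison asks how the loss of HDAC6 bears on gene expression in these cells.

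Proteins that enter the secretory pathway pass through the SEC61 channel into the ER, where they are glycosylated, oxidised and folded. When unfolded protein builds up, the sensors ATF6, IRE1 (encoded by Ern1) and PERK start the unfolded protein response. Cleaved ATF6, and XBP1 made from an mRNA that IRE1 has spliced, raise transcription of chaperones and of the ER-associated degradation pathway (ERAD). Blood stem cells are known for low protein synthesis and for sensitivity to protein misfolding, while progenitors that make granule proteins load the ER heavily.

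Library totals ran from 25993988 to 28743694 counts. Hdac6 itself stood at 54.3 to 68 CPM (the deposited counts scaled to a common library size by the TMM method) in WT and 7.69 to 11.3 CPM in KO. Its adjusted p of 0.000594 by the edgeR quasi-likelihood test with Benjamini-Hochberg adjustment made it the 1 gene called among 12875 tested. A chi-square statistic per degree of freedom over all tested genes, which is near 1 for libraries that differ by counting noise alone, was 25.8 to 91.4 for every pair, so no library was a copy of another. KO replicate 3 was closer to WT than to its group: its distance was 25.8 to 35.5 to the WT libraries, against 58.4 and 53.8 to KO replicates 1 and 2. Those 2 were themselves 45.3 apart, and the WT libraries 35.1 to 39.2. The Hdac6 level of KO replicate 3, 11.3 CPM, was that of a KO library. Counts of members are also given without it. Leaving out the KO library nearest to WT by itself favours larger differences, so those counts are a description only. The LSK gate markers were present in every library. Kit ran from 1127 to 1367 CPM in WT and from 725 to 1082 CPM in KO, and Ly6a, which encodes Sca-1, from 60.3 to 68.7 and from 82.1 to 119 CPM.

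Of the 16 chaperone, lectin and disulfide enzyme genes 15 had a higher mean in KO than in WT (median log2 fold change 0.52), and the 10 ERAD genes had a median of 0.06; none of these differences passed the edgeR test. Of the 34 members 29 had a positive log2 fold change, where 49.5% of all tested genes did, and 5 had a negative one, beside 50.5%. The median was 0.38 over the members and 0 over all tested genes, and single members ran from -0.22 (Dnajb9) to 0.92 (Creld2). By edgeR 0 members passed an adjusted p of 0.05 in either direction, with 0% of all genes called higher and 0.00777% called lower, and the lowest adjusted p of a member was 0.298. At an unadjusted p under 0.05 there were 18 members on the higher side, beside 7.24% of all genes, and 0 on the lower side, beside 6.15%. By DESeq2, run as an alternative, 7 members passed on the higher side at an adjusted p of 0.05, beside 0.897% of all genes, and 0 on the lower side, beside 0.456%. They were Creld2 (0.00587), Sdf2l1 (0.0112), Xbp1 (0.0144), Hsp90b1 (0.0342), P4hb (0.0444), Calr (0.0473) and Hspa5 (0.0487). In 12 members each KO library lay above each WT library, beside 8.86% of all genes, and in 0 members did each lie below, beside 9.7%. An exact permutation test of 3 against 3 libraries cannot give a two-sided p below 0.1.

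KO replicates 1 and 2 carried most of this difference. KO replicate 1 exceeded all WT libraries in 24 of 34 members and KO replicate 2 in 28, beside 31.2% and 29.6% of all tested genes, whereas KO replicate 3 did so in 14, beside 22.4%. Below all WT libraries lay 2, 1 and 6 members in KO replicates 1, 2 and 3, beside 30.1%, 29.7% and 21.6% of all tested genes. KO replicate 3 was the lowest of the KO libraries in 27 of 34 members. Together the members took 0.811% to 0.877% of all counts in WT, and 1.15%, 1.21% and 0.919% in KO replicates 1, 2 and 3. Their median coefficient of variation was 10.6% among WT and 17.1% among KO libraries, against 15.1% and 14% over all tested genes. Without KO replicate 3, edgeR called 8 members higher (Hspa5, Hsp90b1, Sdf2l1, Calr, Pdia3, Pdia4, Pdia6 and P4hb), out of 30 genes called higher in all, which is 0.229% of those tested. Without KO replicate 1 it called 0 members, beside 0.00757% of all genes, and without KO replicate 2 it also called 0 members, beside 0%.

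**Figure D1:**
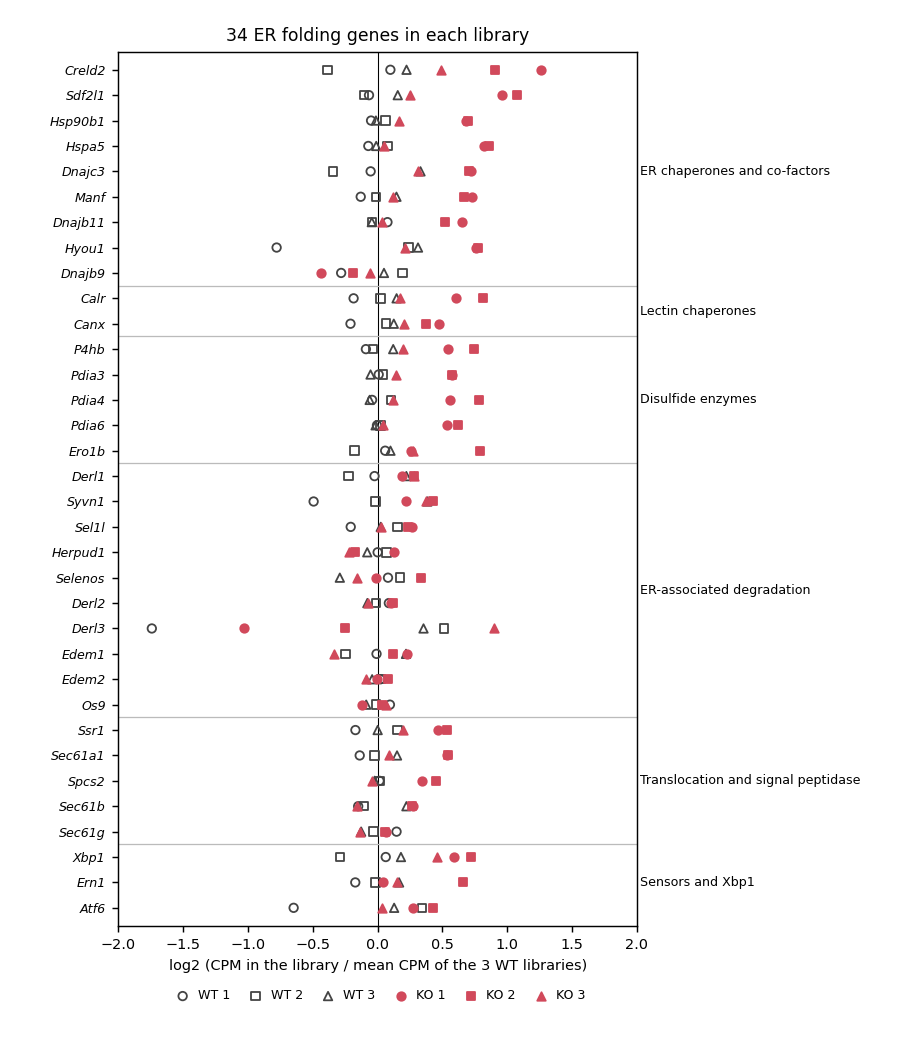
Level of each of the 34 members in each library, as the log2 ratio to the mean of the 3 WT libraries (open symbols WT, filled red symbols KO; circle, square and triangle are replicates 1, 2 and 3). Among the chaperones, lectins and disulfide enzymes KO replicates 1 and 2 mostly lie to the right of the WT libraries and KO replicate 3 lies near them, while the degradation genes scatter around 0.

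Promoter sequence is a feature that the measurements did not define, though the motifs were chosen with earlier results of these data known. The ER stress response element (ERSE), written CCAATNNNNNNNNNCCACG, is the known binding site of ATF6 with the CCAAT-binding factor NF-Y. RefSeq promoters (GRCm38.p6, 250 bases before to 50 after the start of transcription) were found for 29 of the 34 members. The element occurred on either strand in 10 of these 29, or 34.5%, against 37 of the 27025 genes in the RefSeq promoter set, or 0.137%. Since the members were picked as likely ATF6 and XBP1 targets, this share is not independent of the choice. The related ERSE-II (ATTGG, any 1 base, then CCACG, on either strand; it joins the same CCAAT and CCACG letters at a shorter distance) occurred in Herpud1 and, 8 to 18 bases past the start, in Dnajb11, against 0.0444% of all genes. The XBP1-type core TGACGTGG, which contains CCACG on the opposite strand, occurred in 0 of the 29 and in 0.714% of all genes. A match is a description of letters and does not show binding.

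The matches before the start are printed with 20 bases on each side, 5′ to 3′ along the strand of the gene, so that the copies in different members can be compared. The Dnajb11 match lies in transcribed sequence and is not printed. Capitals mark the match, which reads CCAAT first where it lies along the gene and CGTGG first where it lies on the opposite strand.
Hspa5, chr2:34772005-34772063 (+): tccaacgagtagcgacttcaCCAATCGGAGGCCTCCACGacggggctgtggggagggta
Hsp90b1, upstream match, chr10:86705618-86705676 (-): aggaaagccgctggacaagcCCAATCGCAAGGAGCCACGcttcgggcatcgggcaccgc
Hsp90b1, downstream match, chr10:86705513-86705571 (-): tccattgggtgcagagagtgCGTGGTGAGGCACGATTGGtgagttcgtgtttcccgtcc
Creld2, chr15:88819500-88819558 (+): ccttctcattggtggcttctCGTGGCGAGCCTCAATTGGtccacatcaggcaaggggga
Dnajc3, chr14:118937807-118937865 (+): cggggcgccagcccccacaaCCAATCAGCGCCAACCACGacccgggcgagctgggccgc
Calr, chr8:84847055-84847113 (-): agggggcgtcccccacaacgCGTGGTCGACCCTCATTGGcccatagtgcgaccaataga
Canx, chr11:50325780-50325838 (-): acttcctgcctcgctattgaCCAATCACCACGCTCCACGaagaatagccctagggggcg
Pdia6, chr12:17266471-17266529 (+): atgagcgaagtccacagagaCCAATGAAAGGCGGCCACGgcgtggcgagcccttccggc
Ero1b, chr13:12565662-12565720 (+): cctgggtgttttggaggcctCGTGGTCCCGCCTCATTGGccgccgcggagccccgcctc
Syvn1, chr19:6046512-6046570 (+): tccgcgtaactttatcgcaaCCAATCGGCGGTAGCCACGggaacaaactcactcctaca
Derl3, chr10:75893222-75893280 (+): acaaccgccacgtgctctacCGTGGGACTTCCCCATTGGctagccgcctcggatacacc
Herpud1 (ERSE-II), chr8:94386357-94386407 (+): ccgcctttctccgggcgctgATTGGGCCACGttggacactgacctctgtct
The Hspa5 match lay 65 to 47 bases before the start, that of Syvn1 44 to 26 bases before it, and that of Ero1b 201 to 183 bases before it. Hsp90b1 was the 1 member with a pair of matches.

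The luminal chaperones and their co-factors (9 genes) stood at a median log2 fold change of 0.59 and had 8 genes above WT. Hspa5 encodes BiP, the main HSP70 chaperone of the ER, which also holds the sensors inactive. It measured 880, 976 and 918 CPM in WT replicates 1, 2 and 3, and 1634, 1679 and 958 CPM in the KO replicates. KO replicates 1 and 2 stood far above all WT libraries while KO replicate 3 lay inside the WT range, so the groups overlapped. The log2 fold change was 0.62 (SE 0.18), with an edgeR adjusted p of 0.298 for all libraries. It was 0.63 without KO replicate 1, 0.744 without KO replicate 2 and 0.0169 without KO replicate 3. The last is a description only, since leaving out the KO library nearest to WT favours a difference. Hsp90b1, the HSP90 chaperone of the ER, measured 726, 785 and 745 CPM in WT and 1207, 1216 and 845 CPM in KO. Here KO replicate 3 also exceeded WT, by a small margin, and the groups did not overlap.

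Creld2 and Sdf2l1 had the largest fold changes of the 34. Creld2, an ER protein known to be induced by ER stress, measured 69.9, 49.9 and 76.2 CPM in WT and 156, 122 and 91.8 CPM in KO, a 1.89-fold difference (log2 0.92, SE 0.21, edgeR adjusted p = 0.298). All KO libraries were above all WT libraries. Sdf2l1, a partner of BiP and its J-domain proteins, measured 90.9, 88.5 and 106 CPM in WT and 185, 201 and 113 CPM in KO, a 1.75-fold difference (log2 0.81, SE 0.19, edgeR adjusted p = 0.298). Again KO replicate 3 was closest to WT. Without KO replicate 1, 2 or 3 the edgeR adjusted p was 0.6, 0.744 and 0.034 for Sdf2l1. For Creld2 it was 0.583, 0.744 and 0.0527, and the values without KO replicate 3 are again a description only.

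In several other co-factors of BiP KO replicates 1 and 2 were also the highest libraries. Dnajc3, a J-domain co-chaperone, had a log2 fold change of 0.59 (SE 0.17) and ran from 107 to 171 CPM in WT, with KO replicates 1, 2 and 3 at 224, 222 and 169 CPM. Manf, an ER-resident and secreted survival factor that binds BiP, had 0.52 (SE 0.16), with WT at 95 to 115 CPM and KO at 172, 165 and 113 CPM. Dnajb11, another J-domain co-chaperone, had 0.43 (SE 0.15), with WT at 126 to 137 CPM and KO at 204, 186 and 133 CPM. In all of these KO replicate 3 lay inside the WT range. Manf shares exonic bases with Dcaf1 and Rbm15b, so its level is uncertain. Hyou1, a nucleotide exchange factor for BiP, had 0.60 (SE 0.27), and its WT libraries were spread widely, at 31.7, 64.1 and 67.5 CPM. KO replicates measured 92.2, 93 and 62.8 CPM, and without WT replicate 1, the lowest library, its log2 fold change was 0.33. Dnajb9, a J-domain protein known as an XBP1 target, was the exception of this group: it measured 45.5, 63.2 and 57.2 CPM in WT and 40.8, 48.4 and 53.1 CPM in KO, a log2 fold change of -0.22 (SE 0.16, edgeR adjusted p = 0.556). The groups overlapped.

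Calr and Canx encode the lectins that retain newly made glycoproteins until they fold. Calr, the soluble calreticulin, measured 685, 790 and 862 CPM in WT and 1183, 1367 and 880 CPM in KO (log2 fold change 0.55, SE 0.15, edgeR adjusted p = 0.298). Canx, the membrane-bound calnexin, measured 576, 697 and 726 CPM in WT and 924, 863 and 765 CPM in KO (0.35, SE 0.12, edgeR adjusted p = 0.307). In both genes the groups did not overlap, and KO replicate 3 was the lowest KO library.

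All 5 disulfide enzymes had their KO libraries above WT in CPM, beside 8.86% of all tested genes, with log2 fold changes of 0.42 to 0.51. P4hb, the founding protein disulfide isomerase, measured 617, 640 and 714 CPM in WT and 955, 1100 and 754 CPM in KO (0.51, SE 0.14, edgeR adjusted p = 0.298). Pdia3, the isomerase that works with the lectins, measured 540, 553 and 517 CPM in WT and 798, 798 and 592 CPM in KO (0.44, SE 0.12). Pdia4 measured 232, 257 and 229 CPM in WT and 352, 410 and 259 CPM in KO (0.51, SE 0.15). Pdia6 ran from 549 to 563 CPM in WT and from 572 to 851 CPM in KO. For Pdia4 and Pdia6 the non-overlap rests on a small margin between KO replicate 3 and the highest WT library. In the deposited FPKM both had overlapping groups. There KO replicate 3 measured 115.71 FPKM for Pdia4 and 299.53 for Pdia6, against 117.62 and 302.56 FPKM in WT replicate 2. Ero1b, an oxidase that recharges the isomerases, departed from the pattern in that KO replicate 2 alone stood high, at 46.4 CPM against 32.1 and 32.4 CPM in KO replicates 1 and 3 and 23.7 to 28.7 CPM in WT.

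**Figure D2:**
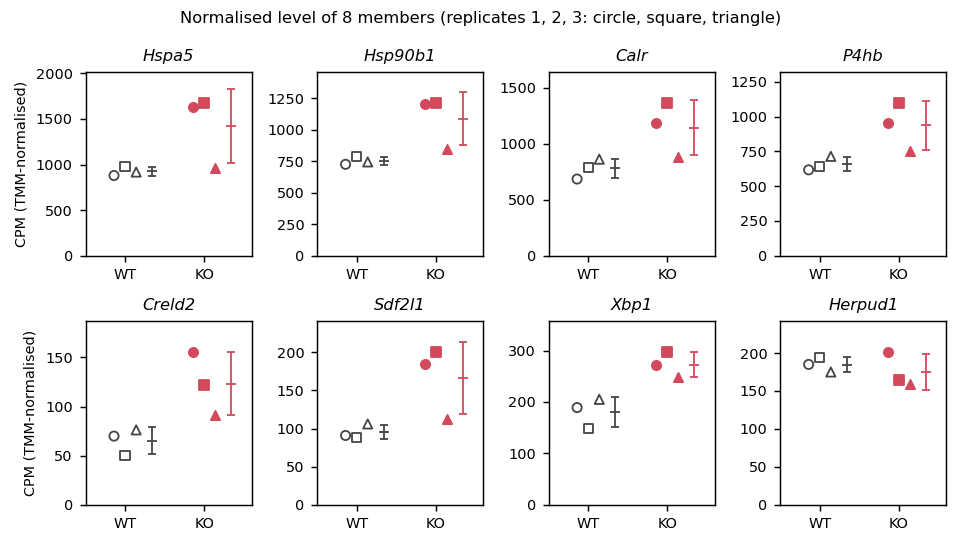
TMM-normalised CPM of 8 members in the 3 WT (open) and 3 KO (red) libraries, each vertical axis starting at 0; circle, square and triangle are replicates 1, 2 and 3, and the bar beside them is the mean with its SD. Hspa5, Hsp90b1, Calr, P4hb and Sdf2l1 show KO replicates 1 and 2 high and KO replicate 3 near WT, all KO libraries of Xbp1 lie above WT, and Herpud1 shows overlapping groups.

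The translocation genes (5 members) had a median of 0.26. Ssr1, a subunit of the translocon-associated protein complex, measured 309, 387 and 348 CPM in WT and 480, 505 and 399 CPM in KO (0.41, SE 0.12, edgeR adjusted p = 0.298), without overlap. Sec61a1, the pore-forming subunit of the channel, measured 308, 333 and 376 CPM in WT and 491, 493 and 360 CPM in KO (0.40, SE 0.14, edgeR adjusted p = 0.31), with KO replicate 3 inside the WT range. Spcs2, a signal peptidase subunit, measured 314, 314 and 306 CPM in WT and 395, 424 and 301 CPM in KO (0.26, SE 0.13). KO replicate 3 was the lowest of all 6 libraries for this gene. The small channel subunits differed less, Sec61b with 0.14 (SE 0.16) and Sec61g with 0.00 (SE 0.14), and both had overlapping groups.

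The 10 ERAD members had a median of 0.06, with 7 above WT, beside 49.5% of all tested genes, and log2 fold changes from -0.08 to 0.34. Without overlap between the groups there were 0 genes, beside 8.86% of all tested genes on the higher side and 9.7% on the lower. At an unadjusted p under 0.05 by edgeR there were 0 ERAD members, beside 7.24% higher and 6.15% lower. With shares of this size, 0 of 10 genes does not set the ERAD members apart from other genes. Their lowest edgeR adjusted p was 0.402. Derl1, which encodes a derlin of the retrotranslocation complex, measured 178, 155 and 211 CPM in WT and 206, 220 and 220 CPM in KO (0.25, SE 0.12). Syvn1, the HRD1 ubiquitin ligase, measured 34.3, 47.7 and 63 CPM in WT and 56.1, 64.9 and 62.7 CPM in KO (0.34, SE 0.20), and its partner Sel1l 155, 199 and 182 CPM in WT and 215, 211 and 182 CPM in KO (0.18, SE 0.12). In each of these genes the groups overlapped. Syvn1 shares exonic bases with Mrpl49 on the opposite strand and Derl2 with Mis12, and the strand setting of the counting is not given, so both levels are uncertain.

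The remaining ERAD genes lay close to WT. Herpud1, a membrane scaffold of the ligase complex, ran from 175 to 194 CPM in WT and from 159 to 202 CPM in KO (-0.08, SE 0.12), with KO replicate 1 the highest and KO replicates 2 and 3 the lowest libraries. The glycan-reading factors Os9 (-0.01, SE 0.10) and Edem2 (-0.01, SE 0.10) had the smallest SEs of the members, and Edem1 (0.02, SE 0.22) was lowly expressed at 13.1 to 19.3 CPM. Selenos, a selenoprotein that ties the complex to the VCP ATPase, had 0.07 (SE 0.17) and Derl2 0.05 (SE 0.12). Derl3, a derlin known for its expression in secretory cells, had low and scattered levels, at 0.646, 3.08 and 2.76 CPM in WT and 1.06, 1.81 and 4.02 CPM in KO (0.09, SE 0.67). The signs of Derl2, Derl3, Edem1, Edem2, Os9, Selenos and of the channel gene Sec61g changed between scalings, tools or left-out libraries.

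Among the controllers, Xbp1 stood above WT in every KO library. It measured 189, 148 and 205 CPM in WT and 272, 298 and 248 CPM in KO (log2 fold change 0.59, SE 0.13, edgeR adjusted p = 0.298). KO replicate 3 was again the lowest of the KO libraries, and the log2 fold change ran from 0.47 to 0.70 when each library was left out. Gene counts do not separate the spliced from the unspliced form of this mRNA. Ern1, which encodes the splicing enzyme IRE1, measured 30.7, 34.2 and 38.8 CPM in WT and 35.6, 54.6 and 38.4 CPM in KO (0.31, SE 0.19), with KO replicate 2 alone outside the WT range. Atf6 measured 28.4, 56.4 and 48.6 CPM in WT and 53.8, 59.7 and 45.5 CPM in KO (0.25, SE 0.23), and the groups overlapped. Without WT replicate 1, the lowest library, the log2 fold change of Atf6 was 0.01.

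**Figure D3:**
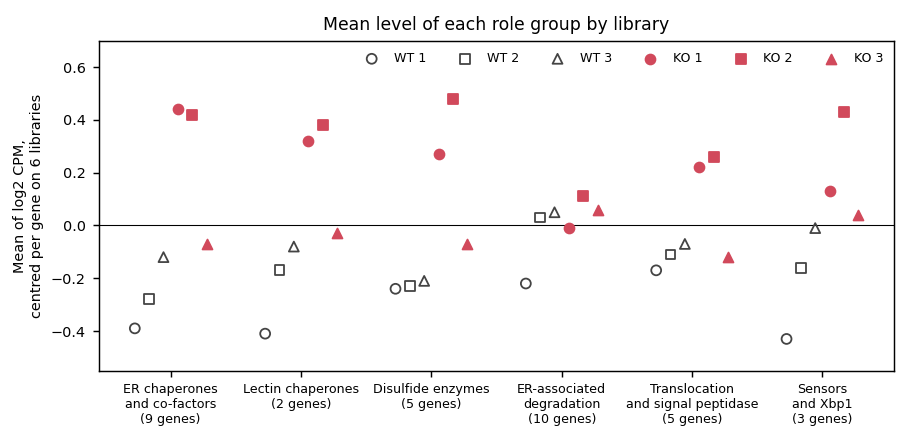
Mean of log2 CPM over the genes of each role, after centring each gene on its mean over the 6 libraries (open symbols WT, filled red symbols KO; symbols as replicates 1, 2 and 3). For the chaperones KO replicates 1, 2 and 3 stand at 0.44, 0.42 and -0.07 against -0.39 to -0.12 in WT, while for the ERAD genes all libraries but WT replicate 1 lie between -0.01 and 0.11.

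Fold changes can be read against the promoter element shown above. The 10 members with ERSE had a median log2 fold change of 0.50, all 10 above WT and 6 without overlap between groups. The 19 members with a promoter but no ERSE match had a median of 0.18, with 6 without overlap. All of them were above WT but Dnajb9, Herpud1, Edem2, Os9 and Sec61g. Herpud1 and Dnajb11, which hold the related ERSE-II, are counted among the 19. Over all tested genes 49.5% were above WT, and 8.86% were so without overlap. The split goes with role: Syvn1 and Derl3 are the only ERAD genes with the element. Sel1l, Derl2, Herpud1, Edem1, Edem2, Os9 and Selenos, also ERAD genes, are among those without it. Element and role therefore cannot be told apart here. The members without a match include Sdf2l1, Xbp1, Pdia4 and P4hb, with fold changes of 0.81, 0.59, 0.51 and 0.51 on the log2 scale. Outside the list, 10 further tested genes held the element, and their median was -0.22 with 4 above WT. That median rests on poorly measured genes. Those below WT were Tdrd9 (-1.75, SE 1.48), Xlr3a (-0.66, SE 0.62), Zfp57 (-0.47, SE 0.36), Acnat2 (-0.40, SE 0.76), Xlr3b (-0.35, SE 0.84) and Pan2 (-0.08, SE 0.12). Of the 10 genes, Hnrnpa3, which encodes an RNA-binding protein, measured 237 ± 19.4 CPM in WT and 310 ± 24.6 CPM in KO (SD, n = 3 each). Acacb, an acetyl-CoA carboxylase, measured 2.23 ± 0.35 and 4.36 ± 0.56 CPM. Both had groups without overlap. Alg12, a glycan-building mannosyltransferase transcribed away from Creld2, shares the same match with it, and had a log2 fold change of 0.11 (SE 0.19) against 0.92 for Creld2. The difference between genes with and without the element was not tested.

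**Figure D4:**
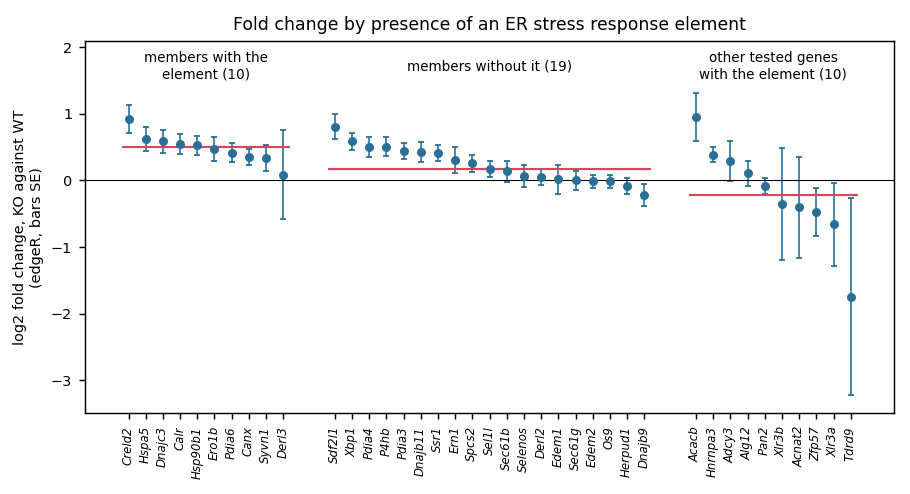
Log2 fold change of KO against WT with its SE for the members with the ER stress response element (10), the members with a promoter but no match (19) and other tested genes with a match (10); red lines are medians, at 0.50, 0.18 and -0.22. Wide bars belong to Derl3 among the members and to Tdrd9, Xlr3b, Acnat2 and Xlr3a among the other genes, whose median is therefore uncertain.

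Levels per length, compared as the deposited FPKM values, put the same genes at the top in both genotypes. In WT Calr led with 462 ± 49.6 FPKM, followed by Hspa5 with 407 ± 24.4, Hsp90b1 with 303 ± 14.7, Pdia6 with 295 ± 7.48, P4hb with 255 ± 17.1 and Pdia3 with 227 ± 10.4 FPKM (SD, n = 3). Calr exceeded Hspa5 within each WT library, at 407.26, 474.98 and 503.93 FPKM against 388.16, 434.78 and 398.87 FPKM. Hsp90b1 and Pdia6 changed order between WT libraries, with Pdia6 slightly higher in replicate 1 alone (293.99 against 293.33 FPKM). These orders were not tested. In KO the same leaders measured 643 ± 124 FPKM for Calr and 593 ± 154 FPKM for Hspa5. At the other end stood the sensors Atf6 (6.26 ± 2.09 FPKM in WT) and Ern1 (5.80 ± 0.68 FPKM), then Edem1 (3.23 ± 0.42 FPKM) and Derl3 (2.00 ± 1.23 FPKM). Among the SEC61 subunits Sec61b was at 203 ± 23.4 FPKM, Sec61a1 at 123 ± 11.5 and Sec61g at 69.8 ± 7.51 FPKM in WT.

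**Figure D5:**
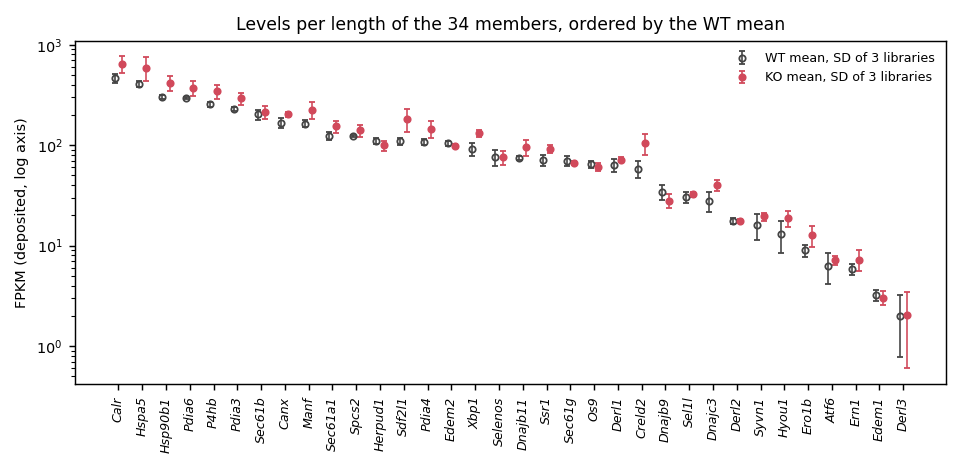
Deposited FPKM of the 34 members on a log axis, ordered by the WT mean, with the SD of 3 libraries (open WT, filled red KO). Calr, at 462 FPKM in WT, Hspa5, Hsp90b1, Pdia6, P4hb and Pdia3 form the upper end, and Atf6, Ern1, Edem1 and Derl3 the lower end. Other chaperones and disulfide enzymes, such as Creld2, Dnajb9, Dnajc3, Hyou1 and Ero1b, lie in the lower part.

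Genes of the same pathway outside the 34 were read from lists of related function, and 0 of them passed the edgeR test in either direction. For this and the following pathway lists, 49.5% of all tested genes were above WT. Further disulfide isomerases and oxidation enzymes (18 tested) had 14 above WT, a median of 0.17 and 4 without overlap on the higher side, beside 8.86% of all tested genes. Txndc5, an isomerase, measured 65.3, 38 and 70.7 CPM in WT and 128, 141 and 80.1 CPM in KO, and Erp29, an ER folding factor, 124, 135 and 136 CPM in WT and 191, 226 and 161 CPM in KO. DESeq2 called 4 genes of this list higher, beside 0.897% of all genes, Txndc5 (adjusted p = 0.0107) and Erp29 (0.0244) among them. Oligosaccharyltransferase and glycan-trimming genes (15 tested) had 13 above WT and a median of 0.21, led by the transferase subunits Ddost (0.52, SE 0.15) and Rpn2 (0.36, SE 0.12). Translocon partners (12 tested) had 9 above WT and a median of 0.13, led by Ssr2 (0.40) and Ssr3 (0.41), which encode further subunits of the complex that holds Ssr1. Signal peptidase and signal recognition particle genes (14 tested) had 13 above WT and a median of 0.16, led by Srp68 (0.33, SE 0.11) and Srp19 (0.33, SE 0.14). Further ER co-chaperones and luminal factors (15 tested) had 11 above WT and a median of 0.15, led by Rcn1 (0.42, SE 0.15) and Sumf1 (1.14, SE 0.41).

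The lists downstream of folding had medians nearer to 0. Further ERAD genes of the membrane and cytosol (26 tested) had 13 above and 13 below WT and a median of 0.00, led by the ubiquitin-conjugating enzyme Ube2j2 (0.53, SE 0.18) and the mannosidase-like Edem3 (0.63, SE 0.23). ER exit genes (17 tested) had 15 above WT with a median of 0.08; the cargo receptor Lman1 measured 161 ± 2.23 CPM in WT and 218 ± 40.7 CPM in KO, and its partner Mcfd2 158 ± 4.72 and 129 ± 1.25 CPM (SD, n = 3 each). Both had groups without overlap, in opposite directions. Of the 17 genes 2 were without overlap on the higher side and 2 on the lower, beside 8.86% and 9.7% of all tested genes. ER-phagy receptors (9 tested) had 4 above WT and a median of -0.04, led by Retreg1 (-0.44, SE 0.19) and Calcoco1 (-0.48, SE 0.24).

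Sensors, brakes and stress factors outside the 34 (18 tested) had 8 above WT and a median of -0.01. Atf4, the transcription factor of the PERK arm, measured 82.4, 96.5 and 93.1 CPM in WT and 120, 108 and 118 CPM in KO (0.35, SE 0.11, edgeR adjusted p = 0.307), without overlap. Ppp1r15a, a phosphatase subunit that ends that arm, measured 44.5, 42.3 and 32.1 CPM in WT and 25.6, 28.8 and 32.4 CPM in KO (-0.45, SE 0.17, edgeR adjusted p = 0.331). Ddit3, the death-linked factor CHOP, chosen here after its values were seen, ran from 16.8 to 21.4 CPM in WT and from 12.1 to 15.9 CPM in KO (-0.44, SE 0.20), without overlap. Of the 18 genes tested, 1 was without overlap on the higher side and 1 on the lower. Over all tested genes the shares were 8.86% and 9.7%, so these counts do not set the list apart. In the deposited FPKM the groups of Ddit3 overlapped, with KO replicate 3 at 20.94 and WT replicate 3 at 20.49 FPKM.

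Markers of cell composition moved with some of the same libraries, and in bulk RNA fewer cells of a type and less RNA per cell cannot be told apart. The LSK and stem cell list (10 of 10 genes in the table) summed to 4200 to 4690 CPM in WT, and to 3410, 3320 and 4330 CPM in KO replicates 1, 2 and 3. KO replicates 1 and 2, with the highest chaperone levels, had the lowest sums of this list. Most of its sum was Cd34, Kit and Flt3, at 1821, 1323 and 768 CPM in WT replicate 1. Of the 10 genes 7 had a negative log2 fold change, beside 50.5% of all tested genes. The other 3 were Ly6a (0.71, SE 0.16), Gata2 (0.09, SE 0.13) and Slamf1 (0.08, SE 0.51). Granule genes of myeloid progenitors (8 of 8) summed to 5000 to 7720 CPM in WT, and to 6830, 17300 and 5670 CPM in the KO replicates. Most of this sum was Mpo, which encodes myeloperoxidase, at 14157 CPM in KO replicate 2. Without KO replicate 2 the median of the 34 members was 0.31, with 27 above WT. In 5 of the 8 granule genes (Prtn3, Ctsg, Cst7, Ms4a3 and Igsf6) both KO replicates 1 and 2 lay above all WT libraries, beside 20.6% of all tested genes. In Mpo, Elane and Fcnb KO replicate 1 lay inside the WT range, and Fcnb had a negative log2 fold change (-0.70, SE 0.62). Prtn3, a serine protease of these granules, measured 215, 239 and 317 CPM in WT and 486, 834 and 275 CPM in KO.

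Plasma cells are known for a large ER. Of their 11 listed markers 9 were in the table. The immunoglobulin genes Igkc and Ighm were absent from it, so their levels could not be read. The 7 markers in the table that are not members summed to 83.7 to 120 CPM in WT. In KO replicates 1, 2 and 3 they summed to 68.8, 96.8 and 157 CPM. Most of that sum came from Sdc1, at 60.2 to 68.1 CPM in WT and 32.5 to 46.3 CPM in KO, and Jchain, at 19.9 to 49.9 and 31.8 to 97.6 CPM. The other 5 were at 4.86 CPM or less in every library, and Tnfrsf17 at 0.212 CPM or less. B cell markers (8 of 8) summed to 57.7 to 90.7 CPM in WT and 66.7 to 101 CPM in KO. Sums were 42.7 to 109 and 18.3 to 37.2 CPM for mature neutrophils (8 of 8), 6.61 to 12.6 and 15.9 to 58.2 CPM for T and natural killer cells (8 of 8), and 120 to 175 and 128 to 286 CPM for erythroid cells (9 of 9). Monocyte and dendritic cell markers (9 of 9) summed to 772 to 1130 CPM in WT and 662 to 2050 CPM in KO, and mast cell and basophil markers (6 of 6) to 127 to 145 and 142 to 234 CPM. No marker listed here was at 0 in all libraries. The part of any of these cell types in the differences of the ER genes was not tested.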

How the data were processed

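RNA-seq libraries of LSK cells from 3 WT and 3 HDAC6-deficient samples were grouped by their labels. Per the file headers, the deposited table holds FPKM values and estimated counts for each gene in each library. According to the submitters' processing notes the build was GRCm39 and the tools included featureCounts 2.0.3, HISAT2 2.2.1, DESeq2 and SAMtools 1.13. Those notes do not state which annotation was used, whether counting used strand, or how multi-mapping reads were counted. Depending on the library, 19.6% to 20.9% of the estimated counts deposited by the authors had a fractional part, so all were rounded. Totals per library ran from 25993988 to 28743694, so that 3 counts equal 0.104 to 0.115 CPM, a limit for counting error only.

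KO was compared with WT by edgeR 4.0.16 in R 4.3.3 (filterByExpr with a minimum count of 10, TMM, robust glmQLFit, glmQLFTest, Benjamini-Hochberg adjustment over 12875 genes, threshold 0.05). All 34 members passed the filter. DESeq2 1.42.0, limma 3.58.1 and the settings named in the closing section were alternatives, and the tests were checked on simulated data, where the calls of DESeq2 held a larger share of false ones than those of edgeR, and edgeR missed most of the smallest changes. The members, lists, motifs and alternatives were chosen with earlier results of these data known. Every member is named. The rule gives per-library values for the 3 members of each role with the smallest p and for Hspa5, Xbp1, Atf6 and Ern1, and names the pair with the smallest p of each outside pathway list. Per-library values of other members, and the cell type markers named, were chosen after their values were seen. Promoters came from RefSeq (GRCm38.p6). Overlapping genes came from GENCODE M21 and gave names only.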

Additional observations from a re-analysis of the deposited data

How the results depend on the processing

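The median log2 fold change of the 34 members, 0.38, ran from 0.30 to 0.42 over 12 alternatives and from 0.30 to 0.46 when each library was left out. Members called higher, 0 by edgeR, numbered 7 by DESeq2, 18 at an unadjusted p of 0.05 and 0 to 8 when each library was left out, the 8 without KO replicate 3. All genes called higher, 0, numbered 120 by DESeq2, 932 at an unadjusted p of 0.05 and 0 to 30 with each library left out; those called lower, 1, numbered 61, 792 and 1 to 14. Members without overlap between groups, 12 on the higher side, numbered 12 to 22, and 0 on the lower side became 0 to 1, with each library left out; over all genes such counts took 11.5% to 20.6% and 12.1% to 20.2% at that size, and 20.6% beside the 22 members without KO replicate 3. Upper-quartile scaling, library size alone and the deposited FPKM gave 10 on the higher side. Members above WT, 29, numbered 26 with library size alone, which put the median of all genes at -0.08.

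Of 611 combinations of a member with a setting, 561 kept direction and side of the threshold. Signs reversed in 7 members whose log2 fold change was between -0.01 and 0.09. Derl2 stood at 0.00 with upper-quartile scaling, -0.03 with library size alone and 0.00 by limma on log2(FPKM + 1) and log2(FPKM + 0.1). Edem1 stood at -0.03, -0.06, -0.07 and -0.09 under the same settings, and Selenos at -0.01 with library size alone and 0.00 on both FPKM scales. Derl3 stood at -0.04 with limma-voom. Edem2 stood at 0.01 with no filter and 0.02 with limma-voom, and Os9 at 0.01 with no filter and 0.00 by DESeq2. Sec61g stood at 0.01 with RLE, 0.02 with no filter, 0.01 by DESeq2, 0.03 with limma-voom and 0.00 with the replicate block. With each library left out, Derl3 ran from -0.58 to 0.43, Edem1 from -0.09 to 0.17, Edem2 from -0.05 to 0.03, Os9 from -0.04 to 0.05, Sec61g from -0.05 to 0.08 and Selenos from -0.08 to 0.17. The cause was not tested.

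With the replicate number as a block, edgeR called 0 members and 1 gene in all, Hdac6, and the members' median was 0.39. Deviations of same-numbered libraries correlated at 0.03, -0.04 and -0.12, so the numbers were not taken to pair the samples.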
